A study of Mus musculus with 4 samples.

Results

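The genes of the 3 beta subunits of the sodium-potassium pump, Atp1b1, Atp1b2 and Atp1b3, are described here in female mouse neural stem cells with and without Smchd1, a noncanonical SMC family protein that helps keep the inactive X silent. They were taken by symbol, 3 of 25965 entries in the table of counts. They were chosen with their counts in Smchd1 del/del and del/fl libraries in view, so fold changes of total counts and the balance of the subunits between these groups are given as a description, without a test.

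The sodium-potassium pump moves sodium out of cells and potassium into them at the cost of ATP, and it works as a pair of a catalytic alpha subunit and a glycosylated beta subunit. The beta subunit is needed for folding of the alpha subunit and its delivery to the plasma membrane, and the isoform present alters the affinity for potassium. In the brain, beta1 (Atp1b1) is widespread and abundant in neurons, beta2 (Atp1b2) is the glial isoform, also known as the adhesion molecule on glia, and beta3 (Atp1b3) is broadly expressed.

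The del/del cells carried a deletion on both Smchd1 alleles, and the del/fl cells carried 1 deleted and 1 conditional allele. Both groups had a mixed C57BL/6, 129 and Castaneus background, with an Xist deltaA allele on the maternal 129 X and an intact Xist on the paternal Castaneus X, written Xist 129-KO/Xist WT-Cast in the labels. Lines came from E14.5 embryos and each was divided. One portion received Cre with a puromycin cassette by retrovirus (MSCV-Cre-puro), was selected from 24 h and was harvested 7 days after transduction, while the other stayed untransduced. Deletion, transduction and selection therefore cannot be told apart. The data held 4 libraries, 2 per group. By the number in their column names they come in pairs, 1 del/del and 1 del/fl library each, taken as the portions of 2 lines and named A and B. The design text names 3 lines per genotype, and other lines were not analysed here.

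Library totals lay between 29873400 and 34018500 counts. Smchd1 had 785 and 852 counts in del/del A and B, against 2779 and 3461 in del/fl A and B. What the Smchd1 counts left in del/del came from was not tested. Of 7 neural stem cell markers, Nes had 28811 to 49410 counts per library and Sox2 7843 to 10507, while Hes5 (183 to 1179) and Prom1 (200 to 509) were the lowest. Of 5 microglial markers Cx3cr1 was at 0 counts in all libraries and Aif1 and Itgam at 0 to 4, while Csf1r had 251 to 304 and P2ry12 48 to 96, and the 5 mesenchymal markers summed to at most 1.99 CPM (read counts scaled to a common library total) in any library, 1.94 to 1.97 in del/del and 1.82 to 1.99 in del/fl. In bulk RNA, a change in the share of cells of a type and a change in RNA per cell cannot be told apart.

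RefSeq windows before the gene start were available for 2 of the 3 genes, Atp1b1 and Atp1b3, and both are shown. For Atp1b2, which differed most between the groups, no window was available. Atp1b3 had 2 windows, and the 1 nearest its start in the table of counts was used. Whether the motifs go with the levels was not tested. Atp1b1 was higher in both del/del libraries, while Atp1b3 lay close to its del/fl level. Each sequence is the 250 bases before the RefSeq start (GRCm38.p6, minus strand, 5′ to 3′), at chr1:164458356-164458605 for Atp1b1 and chr9:96364432-96364681 for Atp1b3, with matches to 3 promoter motifs on either strand in capitals.
Atp1b1: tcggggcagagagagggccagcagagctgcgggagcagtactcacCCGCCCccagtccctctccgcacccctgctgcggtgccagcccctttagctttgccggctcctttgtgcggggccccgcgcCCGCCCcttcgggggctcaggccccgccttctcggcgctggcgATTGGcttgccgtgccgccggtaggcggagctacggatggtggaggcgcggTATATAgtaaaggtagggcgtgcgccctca
Atp1b3: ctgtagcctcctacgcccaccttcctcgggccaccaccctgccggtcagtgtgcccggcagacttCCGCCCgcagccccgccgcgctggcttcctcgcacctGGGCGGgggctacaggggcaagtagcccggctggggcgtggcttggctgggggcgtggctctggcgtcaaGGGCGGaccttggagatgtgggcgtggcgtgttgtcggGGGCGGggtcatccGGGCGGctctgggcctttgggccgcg
The TATA box was spelled TATAAA, with TATATA as a variant. The letters of the CCAAT box are its name, and they read ATTGG from the opposite strand. The GC box was GGGCGG, which from the opposite strand reads CCGCCC. Both strands were searched for each, and no matches of different motifs overlapped. Atp1b1 had 1 TATA box, whose first base lay 30 bases before the start, 1 CCAAT box at 81 bases and 2 GC boxes at 205 and 124 bases. Atp1b3 had 5 GC boxes at 185, 148, 78, 40 and 26 bases, and these letters for the TATA and CCAAT boxes were not in this window. Of 32851 windows of the same length in the table, 15.6% held the TATA letters, 33.8% the CCAAT letters and 32.7% the GC box letters. Both windows were rich in G and C, at 70.4% and 73.6%, and each held 24 CpG dinucleotides.

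Atp1b2 (chromosome 11, 69599736 to 69605942, mm10, minus strand) was the beta subunit gene that differed most between the groups. It had 17097 and 15939 counts in del/del A and B, against 4065 and 6634 in del/fl A and B. As CPM, scaled by edgeR's trimmed mean of M-values (TMM), these were 511 and 498 in del/del libraries and 137 and 195 in del/fl libraries. Both del/del libraries stood above both del/fl libraries, and they lay closer to each other than the del/fl libraries did. The means were 504 ± 8.76 CPM in del/del and 166 ± 40.9 CPM in del/fl (SD, n = 2 each). Within line A the fold was 3.73, within line B 2.56, and the fitted log2 fold change was 1.61 (SE 0.20). Of the 14860 genes tested, 1.72% had a log2 fold change at least as high.

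Atp1b1 (chromosome 1, 164437267 to 164458355, minus strand) was higher in del/del cells by less, and unevenly between the lines. It had 9174 and 5693 counts in del/del A and B, against 4684 and 4649 in del/fl A and B, or 274 and 178 CPM against 158 and 136 CPM. The groups did not overlap, but del/del A stood far above the other 3 libraries. The means were 226 ± 67.9 CPM in del/del and 147 ± 15.0 CPM in del/fl (SD, n = 2 each). Within line A the fold was 1.74 and within line B 1.30, with a fitted log2 fold change of 0.62 (SE 0.24) that came to 0.27 without del/del A. A log2 fold change at least as high was found for 10.6% of tested genes.

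Atp1b3 (chromosome 9, 96332680 to 96364299, minus strand) kept nearly the same level in all libraries. It had 3583 and 3376 counts in del/del A and B, against 3401 and 3594 in del/fl A and B. These were 107 and 106 CPM in del/del libraries and 114 and 105 CPM in del/fl libraries, so the groups overlapped. The fitted log2 fold change was −0.049 (SE 0.094), and the means were 106 ± 1.05 CPM in del/del and 110 ± 6.38 CPM in del/fl (SD, n = 2 each). No member overlapped another entry of the table.

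Over all genes, groups that did not overlap, with del/del above del/fl, were found for 22.9% of those tested, beside Atp1b1 and Atp1b2 among the 3 members, and del/del stood below del/fl for 22.8% of genes and no member. With genotype as the only term, edgeR's quasi-likelihood test called 0 genes in all, or 0%. Without adjustment, 1019 genes were higher and 718 lower with p below 0.05 in that test. DESeq2 with the same term called 263 genes higher (1.77%) and 115 lower (0.774%). With line as a block, edgeR called 3.71% of genes higher and 1.89% lower. DESeq2 with that block called 5.2% higher and 2.87% lower. Since the members were chosen on this contrast, nothing is read from their overlap and no calls are given for them. These shares are the background for other genes.

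Markers of astrocytes differed in the same direction as Atp1b2. All 8 had higher CPM in del/del cells of both lines, their sum was 993 and 911 CPM in del/del A and B, against 568 and 573 CPM in del/fl A and B, and none was at 0. Of these 8, 5 rose with line as a block in edgeR, beside 3.71% of all genes tested. Without the block edgeR called 0 genes in all. The share of all tested genes that were higher in both lines is not given here. Slc1a2 is also among the ion handling genes described further on. The 6 neuronal markers in the table summed to 73.6 and 40.8 CPM in del/del A and B, against 183 and 84.7 CPM in del/fl A and B, with 2 higher and 2 lower in both lines. Without Syt1, a synaptic vesicle gene that fell with line as a block in edgeR, the other 5 summed to 12.2 and 14.8 CPM in del/del A and B, against 12.3 and 12.8 CPM in del/fl A and B. The 7 oligodendrocyte lineage markers summed to 87.8 and 132 CPM in del/del A and B, against 67.9 and 91.9 CPM in del/fl A and B, with 5 higher in both lines, 1 lower and 0 called. The 7 neural stem cell markers summed to 7066 and 5811 CPM in del/del A and B, against 7592 and 6865 CPM in del/fl A and B. Of these, 2 were higher and 2 lower in both lines, and 0 were called. Vim and Nes, the 2 lower ones, make up much of the sum, while Pax6 and Fabp7 were higher. The part of cell type in the beta subunit differences was not tested.

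**Figure D1:**
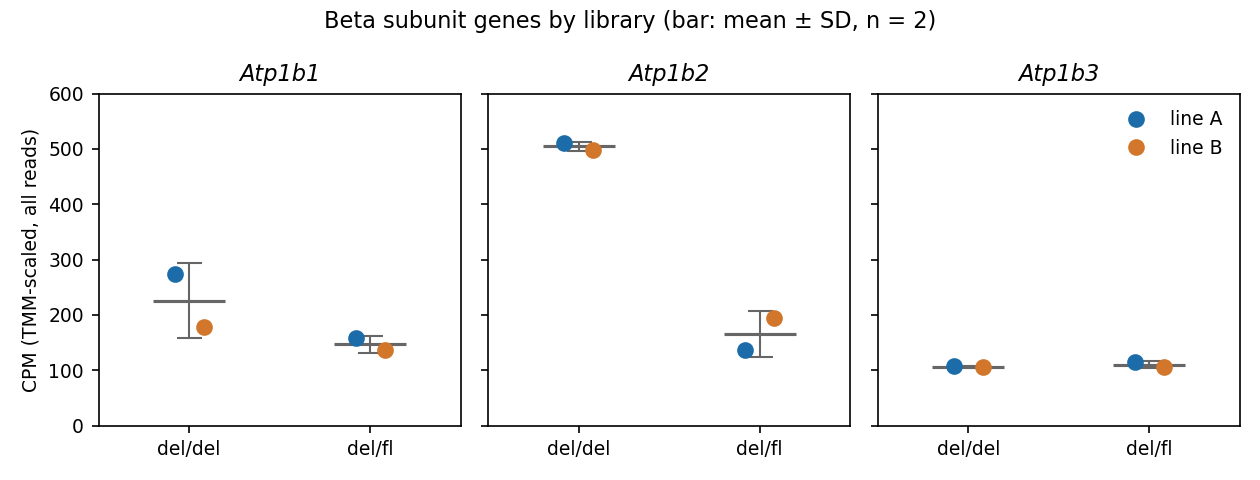
TMM-scaled CPM of each beta subunit gene (vertical axis) in del/del and del/fl cells, with 1 point per library coloured by line and bars for the mean ± SD (n = 2). Atp1b2 stood at 511 and 498 CPM in del/del against 137 and 195 in del/fl, del/del A was apart from the rest for Atp1b1, and the Atp1b3 points lay between 105 and 114 CPM.

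**Figure D2:**
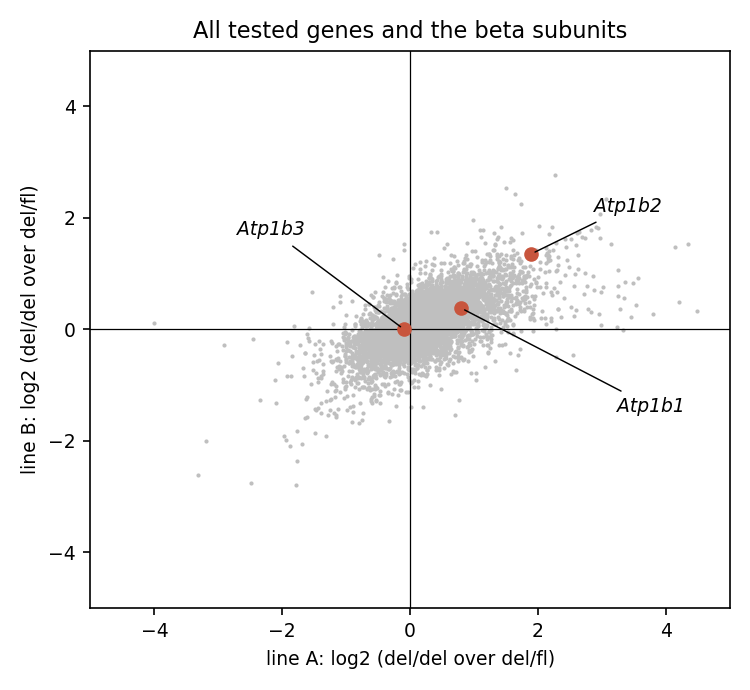
Log2 of del/del over del/fl in line A (horizontal axis) and line B (vertical axis), from CPM with 0.5 added, for each tested gene (grey) and the 3 beta subunit genes (red). Atp1b2, at 1.90 and 1.35, lay beyond the 95th percentile of all tested genes in both lines (0.97 in line A and 0.64 in line B), Atp1b1 was further right than up, and Atp1b3 lay at the centre.

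The balance of the beta subunits was shifted towards Atp1b2 in del/del cells. To compare levels between genes, CPM were divided by the length of the merged exons in GENCODE M21, 3081 bases for Atp1b1, 4085 for Atp1b2 and 2389 for Atp1b3. Atp1b2 made up 48.3% and 54.5% of the sum of the 3 genes per kb in del/del A and B, against 25.3% and 35.0% in del/fl A and B. The means were 51.4% ± 4.36 in del/del and 30.1% ± 6.90 in del/fl (SD, n = 2 each). The difference of 21.3 percentage points came from 23.1 points for line A and 19.5 for line B.

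The share of Atp1b3 was smaller in del/del cells, although its own level hardly differed. It was 17.3% and 19.7% in del/del A and B, against 36.1% and 32.4% in del/fl A and B. That of Atp1b1 was 34.4% and 25.8% in del/del A and B, against 38.6% and 32.5% in del/fl A and B. The shares of Atp1b2 and Atp1b3 did not overlap between the groups, while those of Atp1b1 did. The shares are parts of the same sum, so they are not separate results, and in CPM the groups overlapped for Atp1b3. In CPM, del/del stood above del/fl without overlap for 22.9% of all tested genes and below for 22.8%. No such background was computed for shares. In raw counts, which carry the length of each gene, Atp1b2 made up 57.3% (Wilson 95% interval 56.7 to 57.8) and 63.7% (63.1 to 64.3) of beta subunit counts in del/del A and B, against 33.5% (32.6 to 34.3) and 44.6% (43.8 to 45.4) in del/fl A and B. These intervals cover counting error only.

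**Figure D3:**
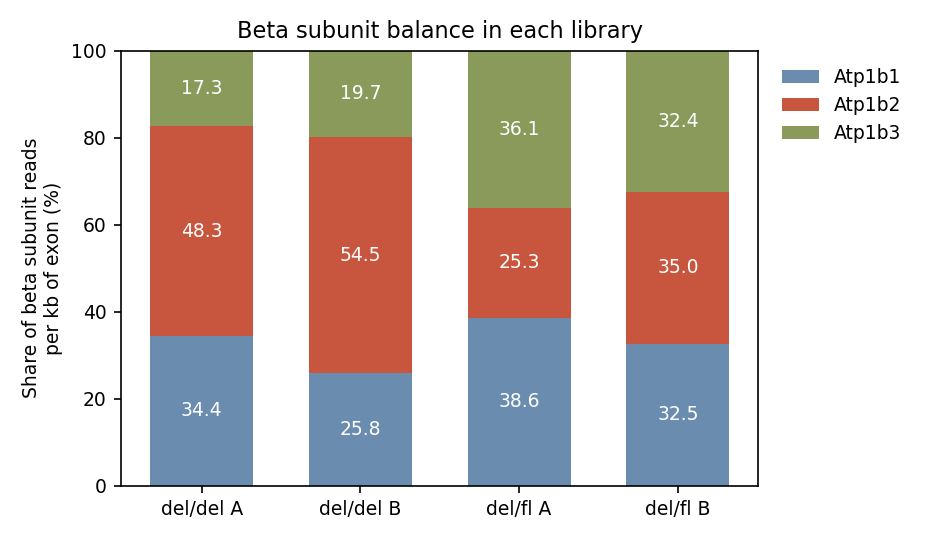
Share of each beta subunit gene in the sum of the 3, in reads per kb of exon (vertical axis, percent), with 1 bar per library. The Atp1b2 segment takes 48.3% and 54.5% of the del/del bars against 25.3% and 35.0% of the del/fl bars, and the Atp1b3 segment is smaller in del/del.

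Per kb of exon, the order of levels was Atp1b2, Atp1b1, Atp1b3 in both del/del libraries. Atp1b2 was at 125 and 122 CPM per kb in del/del A and B, against 33.5 and 47.7 in del/fl A and B. Atp1b1 was at 88.9 and 57.8 in del/del A and B, against 51.2 and 44.3 in del/fl A and B. Atp1b3 was at 44.8 and 44.2 in del/del A and B, against 47.9 and 44.1 in del/fl A and B. In del/del cells the ranges of the 3 genes did not overlap, whereas in del/fl cells they did, so there no neighbour in the order stood apart beyond the spread. Atp1b2 was the lowest of the 3 in del/fl A and the highest in del/fl B. The sum of the 3 was 259 and 224 CPM per kb in del/del A and B, against 133 and 136 in del/fl A and B.

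The ratio of Atp1b2 to Atp1b1 per kb was 1.41 and 2.11 in del/del A and B, against 0.655 and 1.08 in del/fl A and B. Its log2 differed between the groups by 1.04, namely 1.10 within line A and 0.97 within line B. The lines differed in the level of this ratio, and both had a similar shift. The ratio of Atp1b2 to Atp1b3 was 2.79 and 2.76 in del/del A and B, against 0.699 and 1.08 in del/fl A and B. For Atp1b1 to Atp1b3 it was 1.99 and 1.31 in del/del A and B, against 1.07 and 1.00 in del/fl A and B.

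The difference between the lines was not used to choose the genes and was tested over all genes with genotype as a covariate. By edgeR's quasi-likelihood test 1506 of 14860 genes (10.1%) differed between line B and line A, and 0 of the 3 members did. Atp1b1 was at 178 and 136 CPM in line B (del/del and del/fl), against 274 and 158 CPM in line A, lower in line B in both states. Line B minus line A came to −0.42 on the log2 scale (SE 0.11; edgeR adjusted p = 0.0894), whereas DESeq2 called it at an adjusted p of 0.0243 (0.0243 to 1.00 over all alternatives). Without the genotype term it came to −0.0078 when del/del A was left out and −0.80 when del/fl A was. For Atp1b2 the log2 difference was 0.23 (SE 0.14, edgeR adjusted p = 0.332), and it was not in 1 direction, since line B was lower than line A in del/del cells and higher in del/fl cells. For Atp1b3 it was −0.069 (SE 0.068, edgeR adjusted p = 0.543).

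Of 23 other pump and ion handling genes, listed with earlier results known, 15 were tested. Without a term for line edgeR called 0 of them. With line as a block, 4 rose and 0 fell, beside the background of 3.71% and 1.89%. Their edgeR adjusted p was 0.0197 to 0.0451 with the block and 0.341 to 0.401 without it. DESeq2 called 4 without and 5 with the block. The median log2 fold change was 0.50 over the 15 and 0.012 over all genes tested. The edgeR calls with the block were 2 of 4 beta subunit interactors and 2 of 8 genes of the sodium gradient and potassium clearance. Of 7 FXYD genes 2 were tested, and neither was called. Atp1b4, listed as a beta subunit gene by its symbol only, had at most 3 counts in any library.

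The FXYD genes encode small membrane proteins that modulate the pump. Fxyd6 had 319 and 662 counts in del/del A and B, against 185 and 515 in del/fl A and B. It was higher in del/del within each line, while the groups overlapped. Its log2 fold change was 0.50 (SE 0.59) without the block and 0.53 (SE 0.13) with it. Fxyd2 had 14 and 17 counts in del/del A and B, against 9 and 12 in del/fl A and B. Neither was called, and the other 5 genes had a mean under 10 counts. Of the NKAIN genes, named for products that interact with the pump, Nkain3 had 578 and 610 counts in del/del A and B, against 327 and 378 in del/fl A and B, and rose in the blocked fit (log2 fold change 0.72, SE 0.12). Nkain4 had 78 and 40 counts in del/del A and B, against 13 and 13 in del/fl A and B, and rose as well (2.07, SE 0.34, edgeR adjusted p = 0.0443), but DESeq2 did not call it without the block (adjusted p = 0.155) or with it (0.0911). The opposite-strand entries that overlap them had at most 33 counts (Gm11872, at Nkain3) and 6 counts (Gm14341, at Nkain4). Nkain1 (5107 and 4650 counts in del/del A and B, 5043 and 5090 in del/fl A and B) and Nkain2 (27 and 12, against 14 and 15) were not called. Of the proton-potassium pump genes Atp4a had 107 and 84 counts in del/del A and B, against 68 and 71 in del/fl A and B, and was not called, while Atp4b and Atp12a were at 0.

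Genes whose products use the sodium gradient or clear potassium showed 2 rises in the blocked fit. The glutamate transporter gene Slc1a3 had 80513 and 83546 counts in del/del A and B, against 35620 and 47140 in del/fl A and B (log2 fold change 0.96, SE 0.08). The sodium-calcium exchanger gene Slc8a2 had 698 and 680 counts in del/del A and B, against 267 and 314 in del/fl A and B (1.21, SE 0.12). The other 6 were not called in that fit, but DESeq2 called Slc1a2 higher without the block (adjusted p = 0.00298) and with it (0.0314), and Slc4a4 higher with the block (0.00213). The log2 fold change without the block was 1.68 for the glutamate transporter gene Slc1a2, 0.70 for Slc8a3, 0.43 for the bicarbonate cotransporter gene Slc4a4, 0.37 for Slc8a1, 0.14 for the potassium channel gene Kcnj10 and −0.18 for the cotransporter gene Slc12a2.

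**Figure D4:**
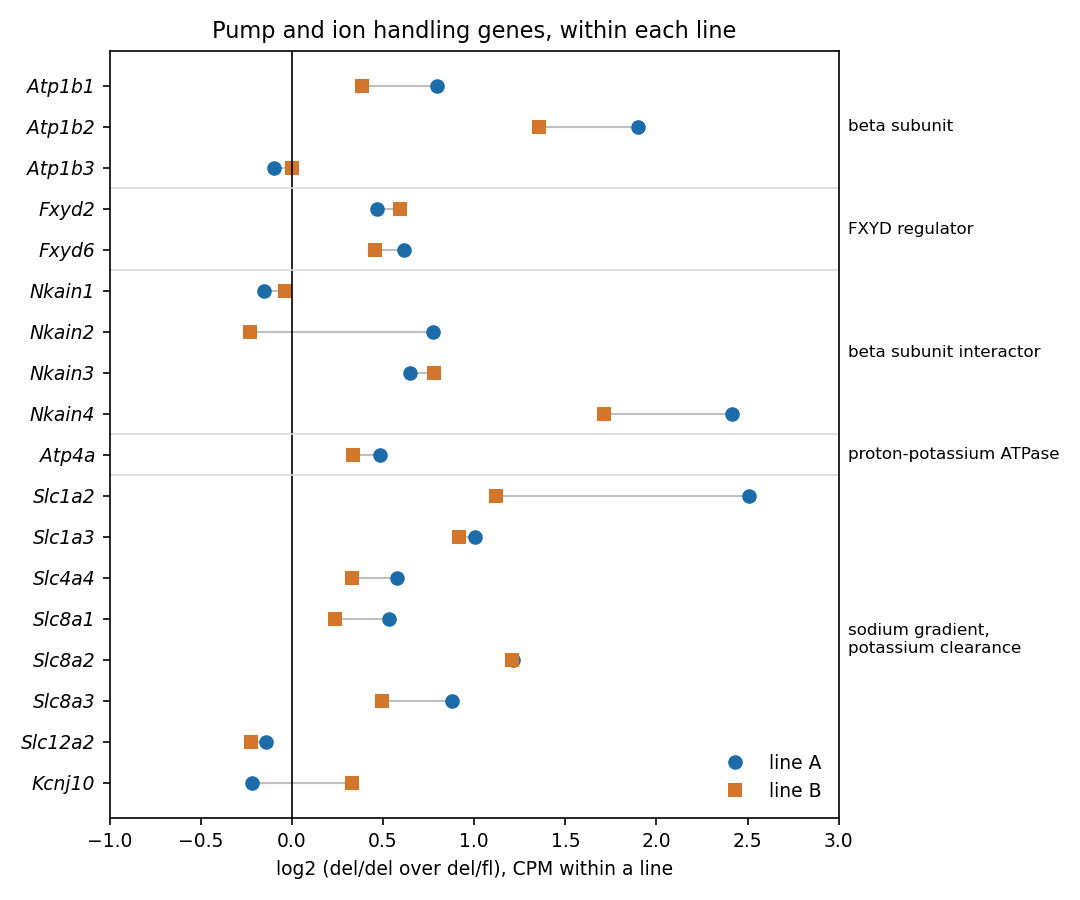
Log2 of del/del over del/fl in CPM within line A (circles) and line B (squares) for the beta subunit genes and the 15 listed genes with a mean of at least 10 counts, grouped by role. Points of both lines lie right of 0 for Atp1b1, Atp1b2 and 11 of the 15 listed genes and left of 0 for 2 (Nkain1 and Slc12a2), and those of Atp1b3 lie at or near 0. The share of all tested genes right of 0 in both lines is not given here.

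The genes most like each member were taken as those with the smallest Euclidean distance between log2 CPM values centred on their mean over the 4 libraries, among 10655 other genes with a mean log2 CPM of at least 3. For Atp1b2 these were Spon1, Timp4 and Fam5b, at distances of 0.228, 0.255 and 0.284. Spon1, which encodes the secreted matrix protein F-spondin, had 102 and 82.6 CPM in del/del A and B, against 22.1 and 32.9 in del/fl A and B. Timp4, a metalloproteinase inhibitor gene, had 86.5 and 84.9 CPM in del/del A and B, against 27.8 and 38.6 in del/fl A and B. For Atp1b1 they were Pros1, Pon2 and Ppp1r14c, at 0.0395, 0.0470 and 0.0511. Pros1, which encodes protein S, had 231 and 153 CPM in del/del A and B, against 138 and 117 in del/fl A and B, so del/del A stood apart there too. For Atp1b3 they were Gm11696, Rnasek and Ccdc53, at 0.0127 to 0.0175. With 4 libraries the likeness is a description only.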

How the data were processed

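RNA of 4 libraries was analysed. The authors deposited raw counts per gene, whole numbers, with 3 columns per library. The column for all aligned reads was used. Values of the other 8 columns, of reads split by parental genome, are not reported here, because the labels do not tie a column to a single sample. Among the tools in the submitters' processing notes are TopHat2 2.0.12 and edgeR, with mm10 as the build. The sources used here do not give the counter, annotation or strand use. Group came from the column names and labels, and line from a number shared by column names, which the labels lack. Per the labels' protocols each line was divided, which pairs its libraries. Their deviations from group means correlated across 14860 genes (r = 0.719).

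All genes with enough counts (filterByExpr) were tested with edgeR 4.0.16 in R 4.3.3 (quasi-likelihood test, TMM, Benjamini-Hochberg threshold 0.05) with genotype as the only term. Line as a block and DESeq2 1.42.0 were alternatives. The line effect had genotype as a covariate. Each SE given is the absolute log2 value divided by the square root of the quasi-likelihood F statistic of its edgeR fit. Whether the lines came from separate embryos is not stated, so a p-value reflects only how far these cultures spread. Exon lengths came from GENCODE M21 and Wilson intervals (95%) from statsmodels 0.14.6. Listed genes with a mean of at least 10 counts were given values, as were the 3 genes most like each member. Members and lists were chosen with earlier results of these data known. The neuronal marker Map2 was not analysed here, and some other pump and ion handling genes are not reported here.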

Additional observations from a re-analysis of the deposited data

Results flagged for a closer look

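For 3 genes the effect of del/del over del/fl had opposite signs in the lines, with 1 library per state and line, and the differences between lines were not tested. For Atp1b3 the log2 was −0.097 within line A and 0.0010 within line B, a difference of −0.098. For Nkain2, at 12 to 27 counts per library, line A had 0.77 and line B −0.23, a difference of 1.006. Another entry of Nkain2, which was not tested, had 9 and 1 counts in del/del A and B, against 9 and 6 in del/fl A and B. Kcnj10 was at −0.22 within line A and 0.33 within line B, a difference of −0.55.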

How the results depend on the processing

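The number of genes called moved most. For total counts edgeR called 0 of all genes, against 832 with line as a block (the replicate block), 378 with DESeq2 and 1199 with DESeq2 and that block, a combination chosen after seeing the data. Among the listed genes the counts were 0, 4, 4 and 5 in the same order. Each library in turn was left out only in edgeR with genotype as the only term, which called 0 genes with all libraries. Those fits left 1 library in a group, so nothing is read from their calls. The fits with the block or DESeq2 were not rerun that way. For the line effect 1506 genes became 8 without the genotype term, and 0 to 176 when 1 library was also left out, since with genotype kept no residual degree of freedom was left. The block turned the sign of no member.

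Over the fits that left out 1 library, the log2 fold change of Atp1b2 ran from 1.37 (without del/fl A) to 1.88 (without del/fl B), that of Atp1b1 from 0.27 (without del/del A) to 0.88 (without del/del B), and that of Atp1b3 from −0.11 to 0.0068. The difference in Atp1b2 share ran from 16.4 to 26.1 percentage points, in Atp1b3 share from −17.6 to −13.9 and in Atp1b1 share from −9.77 to −1.19, and the log2 ratio of Atp1b2 to Atp1b1 from 0.68 to 1.40. In raw counts, which are not divided by gene length, the Atp1b3 share differed by −13.3 points. The line effect on Atp1b1 was −0.42 in DESeq2, where it was called. Without the genotype term, it ran from −0.80 (without del/fl A) to −0.0078 (without del/del A), and that on Atp1b2 reversed to −0.72 without del/del B and −0.55 without del/fl A, where the lines hold unequal genotypes by construction, in a range of −0.72 to 1.34. Kcnj10 ran from −0.59 (without del/del B) to 0.61 and was −0.14 without del/fl A. Fxyd6 ran from −0.18 (without del/del B) to 1.28 and was −0.0035 without del/fl A. Nkain2 ran from −0.28 (without del/del A) to 0.80. In these fits without a term for line, 1 group kept a library of only 1 line, so line and genotype were not separated. On the log2 scale Fxyd6 was at 0.61 within line A and 0.45 within line B, whereas Kcnj10 and Nkain2 had opposite signs in the lines. The cause of these reversals was not tested. Alternatives that need reads split by parental genome, and the test of their ratio, are not reported, since those columns cannot be tied to single samples. Genes with a mean under 10 counts were too shallow to describe.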
